A study of Homo sapiens with 4 samples.

Results

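The insulin-like growth factor (IGF) axis was followed through 10 genes in VCaP cells, a human prostate cancer cell line with a TMPRSS2-ERG fusion. The members are the receptor genes IGF1R, INSR and IGF2R, the adaptor genes IRS1 and IRS2, and the binding protein genes IGFBP2, IGFBP3, IGFBP4, IGFBP5 and IGFBP6. They were named in a list and matched by gene symbol, and all 10 were found among 60308 gene identifiers. The list was drawn up with the difference of IGFBP2 between the groups already known, so every difference between the groups given for these genes is a description and not evidence of an effect. Cells received an siRNA against ZBTB7A (siZBTB7A) or a non-targeting siRNA (siNTC) in DMEM with 10% serum, and total RNA was sequenced. ZBTB7A encodes a zinc finger transcriptional repressor, and the comparison asks which genes depend on it. Each group had 2 count tables from the same cell line, with no label that ties them to separate cultures or transfections.

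IGF1 and IGF2 act through the IGF1 receptor, a tyrosine kinase closely related to the insulin receptor. The activated receptors phosphorylate the docking proteins IRS1 and IRS2, which recruit PI3-kinase. IGF2R, the cation-independent mannose 6-phosphate receptor, has no kinase and takes up IGF2 for degradation in lysosomes. The secreted IGF binding proteins hold the ligands outside the cell and set how much reaches the receptors. IGFBP2 also carries an RGD motif that binds integrins, and its serum level has long been studied in prostate cancer.

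The 2 tables of a group were counted as 1 library, because they differed by no more than sampling noise. Divided by its degrees of freedom, the chi-square statistic of their counts was 0.995 between the siZBTB7A tables and 0.993 between the siNTC tables, against 3.503 to 3.64 between tables of different groups. The summed gene reads were 11301923 in siZBTB7A and 11665394 in siNTC. Differences below therefore compare 1 library with 1 library, and their 95% intervals cover counting error only. ZBTB7A itself had 70 and 74 reads in the siZBTB7A tables and 90 and 115 reads in the siNTC tables, which makes it 0.743-fold (0.596 to 0.924) in siZBTB7A. Both siZBTB7A tables were lower, but ZBTB7A was not called by edgeR's quasi-likelihood test with Benjamini-Hochberg adjustment across all genes (adjusted p = 0.0969). All 9 epithelial and prostate markers of VCaP passed the filter on low counts, and 8 had a log2 fold above 0. Of all 12848 tested genes, 6446 did. The edgeR test called 4 of the 9 markers higher in siZBTB7A, beside 2.25% of all tested genes. These were FOLH1 (1.16-fold), SLC45A3 (1.16-fold), HOXB13 (1.08-fold) and KLK2 (1.02-fold). Corrected for GC content and length, FOLH1 and SLC45A3 were called and HOXB13 and KLK2 were not. The scaled fold was 1.01 (0.967 to 1.06) for ERG and 1.11 (0.987 to 1.24) for KLK3, which encodes prostate-specific antigen. The part of these markers in the results was not tested. The 11 matched leukocyte, fibroblast, endothelial and basal markers came to 16.5 CPM (reads scaled to a common library total) in siZBTB7A and 18.5 CPM in siNTC, and most of that was LUM, at 12.9 and 15.1 CPM, whose part in the results was not tested. KRT5 and COL1A2 had 0 reads in every table, the only 2 of these 11 markers with none. The basal marker KRT14 had 15 reads in siZBTB7A and 20 in siNTC, and the fibroblast marker COL1A1 had 12 and 6.

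The upstream sequences of the members called different between the libraries are shown here as a description. Each is the 250 bases before a transcription start in RefSeq (GRCh38.p14), read 5′ to 3′ on the gene's own strand. Capitals mark a GC box (GGGCGG) or an E-box (CACGTG), searched on both strands with overlaps allowed. RefSeq lists 3 starts for IGFBP2, and the second, the most GC-rich of them, is printed. Its window lies at chr2:216633170-216633419 on the plus strand, that of IGFBP5 at chr2:216695550-216695799 on the minus strand, and that of IGF2R at chr6:159968832-159969081 on the plus strand.
IGFBP2: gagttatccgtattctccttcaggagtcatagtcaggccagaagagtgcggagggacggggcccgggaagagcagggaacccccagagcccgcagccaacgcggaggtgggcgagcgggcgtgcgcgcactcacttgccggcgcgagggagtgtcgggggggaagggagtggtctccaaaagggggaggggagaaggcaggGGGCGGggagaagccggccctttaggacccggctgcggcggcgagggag
IGFBP5: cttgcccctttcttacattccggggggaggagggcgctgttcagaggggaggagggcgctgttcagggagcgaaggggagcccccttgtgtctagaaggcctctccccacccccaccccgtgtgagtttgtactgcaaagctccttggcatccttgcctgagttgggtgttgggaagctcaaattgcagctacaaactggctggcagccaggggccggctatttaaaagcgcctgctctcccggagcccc
IGF2R: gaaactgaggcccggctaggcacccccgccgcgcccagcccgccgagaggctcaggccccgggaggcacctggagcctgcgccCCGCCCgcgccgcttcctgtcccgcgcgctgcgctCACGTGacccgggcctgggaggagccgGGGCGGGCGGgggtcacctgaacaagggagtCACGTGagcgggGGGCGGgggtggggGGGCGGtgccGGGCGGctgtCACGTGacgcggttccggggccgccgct

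The IGFBP2 window held 1 GC box, the IGFBP5 window held 0, and the IGF2R window held 6 GC boxes and 3 E-boxes. Among all 35116 such windows, 42.6% held a GC box and 6.34% an E-box. GC content was 69.2% in the IGFBP2 window, 61.2% in that of IGFBP5 and 79.2% in that of IGF2R, beside a median of 58.0% over all windows. The first and the third IGFBP2 windows, at 56.8% and 56.4%, lay below that median, and the third held 0 GC boxes. Of the 12 windows of the 10 members, 10 held a GC box, 2 a CCAAT box (CCAAT) and 1, that of IGFBP4, a TATA element (TATAAA). Over all windows, 32.0% held CCAAT and 10.7% held TATAAA. These matches describe the letters only, and no binding data were used.

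IGFBP2 was the member with the highest level in both libraries. On the RPKM scale, which is CPM divided by the kilobases of annotated exon, it reached 69.0 (95% counting interval 66.8 to 71.3) in siZBTB7A and 53.9 RPKM (52.0 to 55.9) in siNTC. That was 5.54 and 4.17 times the level of IGF1R, which stood at 12.5 RPKM in siZBTB7A and 12.9 RPKM in siNTC. IGFBP2 lay above 96.9% of the tested protein-coding genes in siZBTB7A and 96.0% in siNTC, and IGF1R above 76.3% and 77.3%.

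The remaining members followed in the same order in both libraries. IGFBP3 stood at 7.04 RPKM in siZBTB7A and 5.74 RPKM in siNTC, and IRS2 at 5.48 and 4.55 RPKM. INSR (2.79 and 2.79 RPKM), IGF2R (2.23 and 2.73 RPKM) and IRS1 (1.76 and 1.86 RPKM) came next, again with siZBTB7A first. The counting intervals of INSR and IGF2R overlapped in siNTC and did not in siZBTB7A. With the longest transcript as the length, INSR and IGF2R changed places in siNTC (3.26 against 3.47 RPKM).

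IGFBP4, IGFBP5 and IGFBP6 were close to absent. Their levels were 0.733, 0.334 and 0.266 RPKM in siZBTB7A, and 0.269, 0.0920 and 0.0629 RPKM in siNTC. The counting intervals of IGFBP4 and IGFBP5, and those of IGFBP5 and IGFBP6, overlapped in each library, so the order among these scarce genes was not resolved. The plot of CPM by table shows them below every other member.

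**Figure D1:**
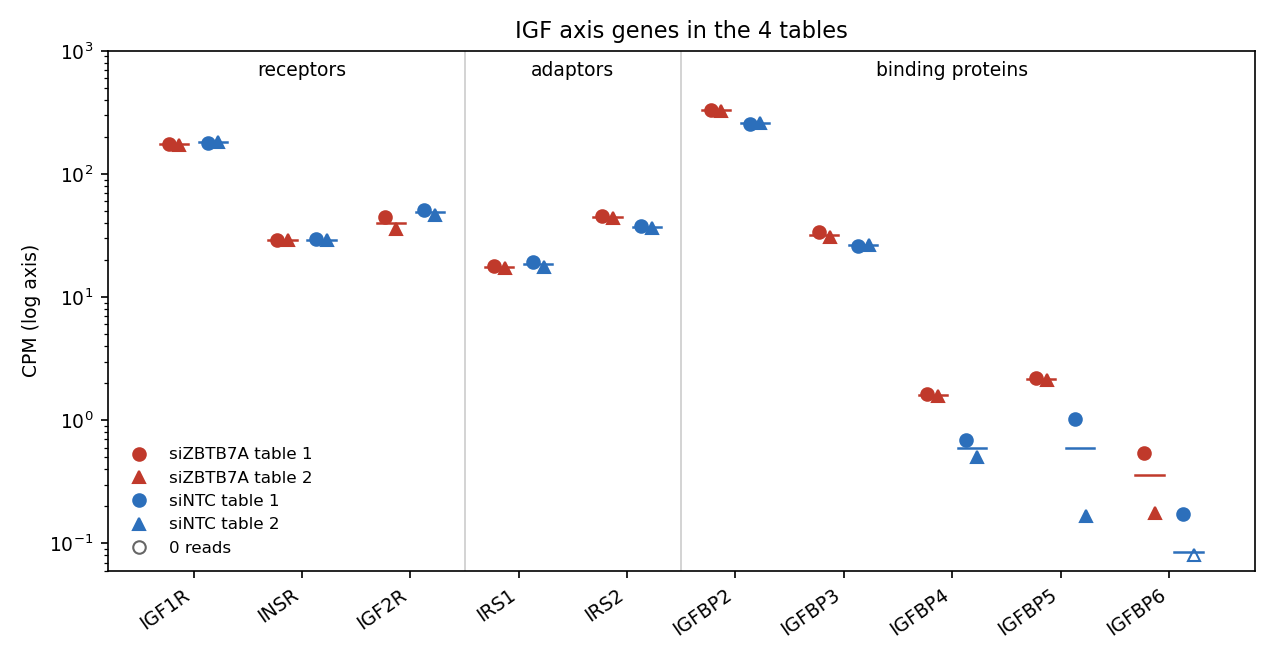
CPM on a log axis for the 10 members in each of the 4 tables, with circles for the first table, triangles for the second and lines for the summed tables of a group. The siZBTB7A tables lie above the siNTC tables for IGFBP2 (331 and 327 against 254 and 260 CPM), while those of INSR interleave; an open symbol marks 0 reads and has no height of its own.

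Across all genes the test called 639 of 12848, or 4.97%, with 2.25% higher and 2.72% lower in siZBTB7A. Of the 10 members, 8 passed the filter on low counts, and 2 of these were called higher (IGFBP2 and IGFBP5) and 1 lower (IGF2R). Both values of one group lay beyond both of the other in 46.9% of tested genes and in 6 of the 8 tested members, 4 of them higher and 2 lower in siZBTB7A. Because the members were chosen on this comparison, nothing is read from these counts.

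Among the binding proteins, IGFBP2 had 1818 and 1856 reads in the siZBTB7A tables and 1476 and 1559 reads in the siNTC tables. Both siZBTB7A tables were higher, at 331 and 327 CPM against 254 and 260 CPM in siNTC. The summed tables gave 1.28-fold more in siZBTB7A (1.22 to 1.34). Of 310 protein-coding genes at or above the mean CPM of IGFBP2, 3 had a larger fold. The SD of the log2 fold over those 310 genes was 0.10, and that of IGFBP2 was 0.36. The difference of IGFBP2 was known when the list was drawn up, so its place among these genes is a description only.

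IGFBP3, which carries most of the IGF in serum and is a substrate of prostate-specific antigen, was counted far less deeply than IGFBP2. It had 184 and 175 reads in the siZBTB7A tables, and 150 and 160 reads in the siNTC tables. The groups did not overlap, at 33.5 and 30.8 CPM in siZBTB7A and 25.8 and 26.6 CPM in siNTC. The fold was 1.23 (1.05 to 1.43), close in size to that of IGFBP2, but IGFBP3 was not called in the test across all genes.

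IGFBP5, which binds extracellular matrix as well as IGFs, had 12 and 12 reads in the siZBTB7A tables and 6 and 1 reads in the siNTC tables. Its fold was 3.63 (1.52 to 9.97). It passed the filter on low counts only through the siZBTB7A tables, and it was also called with no such filter. The value rests on single tables: the fold was 12.9 without the first siNTC table and 2.08 without the second. It was called without the first siNTC table, and not called without the second siNTC table or without either siZBTB7A table.

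IGFBP4, an inhibitory binding protein that the protease PAPPA cleaves, had 9 and 9 reads in the siZBTB7A tables and 4 and 3 reads in the siNTC tables. IGFBP6, which prefers IGF2, had 3 and 1 reads in siZBTB7A and 1 and 0 reads in siNTC. Neither passed the filter. Their folds were 2.72 (1.08 to 7.71) and 4.23 (0.419 to 208), so a direction for IGFBP6 was not detectable at this depth. The interval of IGFBP4 included 1 whichever table was left out, as at 0.772 to 9.51 without the second siNTC table.

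IGFBP2 took most reads of the binding protein family in both libraries. IGFBP2 took 90.1% (89.1% to 91.0%) of the reads of the 5 binding protein genes in siZBTB7A and 90.3% (89.3% to 91.3%) in siNTC, and IGFBP3 took 8.80% and 9.23%. The scarce IGFBP5 took 0.588% (0.377% to 0.874%) in siZBTB7A and 0.208% (0.0838% to 0.429%) in siNTC, and IGFBP4 took 0.441% and 0.208%. The summed reads of the 5 genes were 365 CPM in siZBTB7A and 284 CPM in siNTC, a fold of 1.28 (1.23 to 1.35). Without IGFBP2, the other 4 gave 1.32 (1.14 to 1.53), a sum that is mostly IGFBP3.

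Of the receptor genes, 1 of 3 was called, IGF2R. IGF1R had 966 and 974 reads in the siZBTB7A tables and 1039 and 1089 reads in the siNTC tables, at 176 and 172 CPM against 179 and 181 CPM. The siZBTB7A tables lay just below the siNTC tables, with a fold of 0.965 (0.907 to 1.03). Corrected for GC content and length it came to 1.01, so its direction turned. INSR, the insulin receptor gene, had 159 and 166 reads in siZBTB7A and 172 and 173 reads in siNTC. Its tables overlapped after scaling and its fold was 0.997 (0.854 to 1.16), on either side of 1 among the alternatives (0.972 to 1.03).

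IGF2R had 244 and 201 reads in the siZBTB7A tables and 298 and 278 reads in the siNTC tables. Scaled, this was 44.5 and 35.4 CPM in siZBTB7A and 51.3 and 46.3 CPM in siNTC, without overlap but with a wide gap between the siZBTB7A tables. The fold was 0.818 (0.721 to 0.927), and IGF2R was called lower. The call was lost without the first siNTC table (0.859) and without the second siZBTB7A table (0.911). It was also lost with a correction for GC content and transcript length (0.863), with unstranded counts (0.821) and with no filter on low counts (0.820).

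Neither of the adaptor genes IRS1 and IRS2 was called, and the sign of the IRS1 difference was not resolved. IRS2 had 251 and 247 reads in the siZBTB7A tables and 218 and 219 reads in the siNTC tables, which did not overlap at 45.7 and 43.5 CPM against 37.5 and 36.5 CPM. Its fold was 1.21 (1.06 to 1.37). IRS1 had 99 and 97 reads in siZBTB7A and 113 and 106 reads in siNTC, and its CPM values overlapped, with a fold of 0.947 (0.777 to 1.15).

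**Figure D2:**
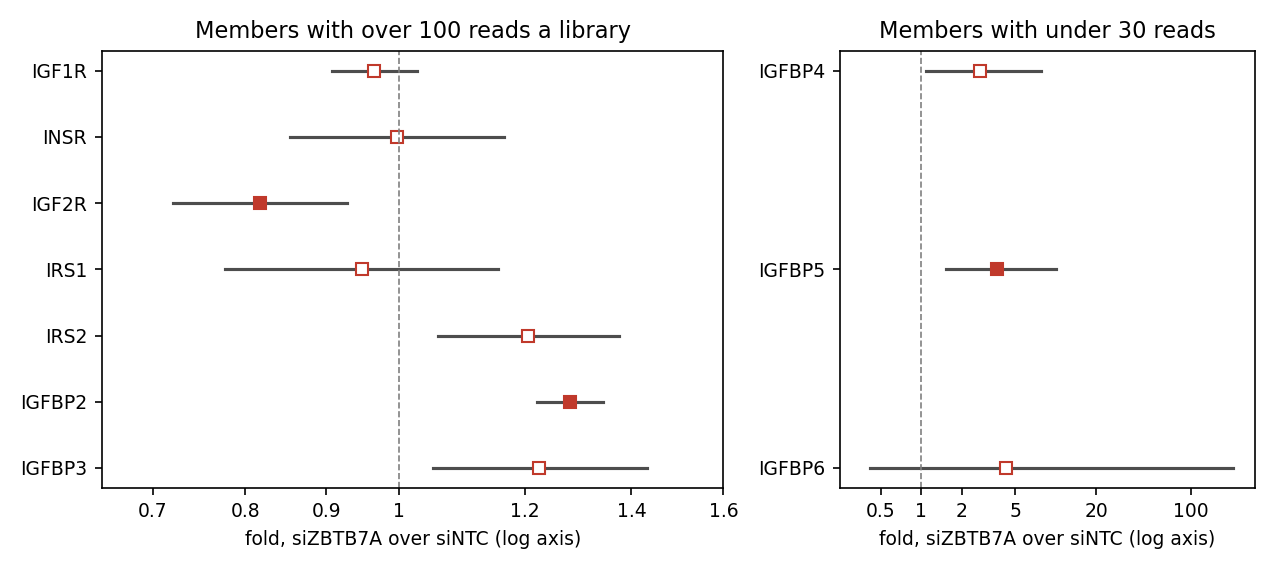
Fold of siZBTB7A over siNTC on a log axis for the 10 members, from the summed tables, with exact 95% counting intervals as lines; filled squares mark genes called in the test across all genes. IGFBP2 has the narrowest interval (1.22 to 1.34), IGF2R lies below 1, and the right panel shows how wide the intervals of IGFBP4, IGFBP5 and IGFBP6 are.

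Ratios between members within a library do not depend on how libraries are scaled to each other, but they are not corrected for GC content and length. With that correction the folds were 1.26 for IGFBP2, 1.19 for IGFBP3 and 1.01 for IGF1R. IGFBP2 reads were 1.88 and 1.91 times the IGF1R reads in the siZBTB7A tables and 1.42 and 1.43 times in the siNTC tables, a ratio of ratios of 1.33 (1.23 to 1.44). IGFBP3 over IGF1R was 0.190 and 0.180 in the siZBTB7A tables, against 0.144 and 0.147 in the siNTC tables, a ratio of ratios of 1.27 (1.07 to 1.502). IGFBP2 over IGFBP3 was 10.2 in siZBTB7A and 9.79 in siNTC, and its interval of 0.888 to 1.23 includes 1.

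Between the kinase receptors the balance was similar in both libraries. IGF1R reads were 5.97 times the INSR reads in siZBTB7A and 6.17 times in siNTC (ratio of ratios 0.968, 0.819 to 1.14). IGF2R over IGF1R was 0.229 in siZBTB7A and 0.271 in siNTC (0.847, 0.736 to 0.975). IRS2 over IRS1 was 2.54 in siZBTB7A and 1.995 in siNTC (1.27, 1.003 to 1.62). Of all member reads, binding proteins took 54.5% (53.4% to 55.6%) in siZBTB7A and 47.6% (46.4% to 48.7%) in siNTC, and receptors took 36.2% and 43.2%. The adaptors took 9.27% and 9.29%.

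**Figure D3:**
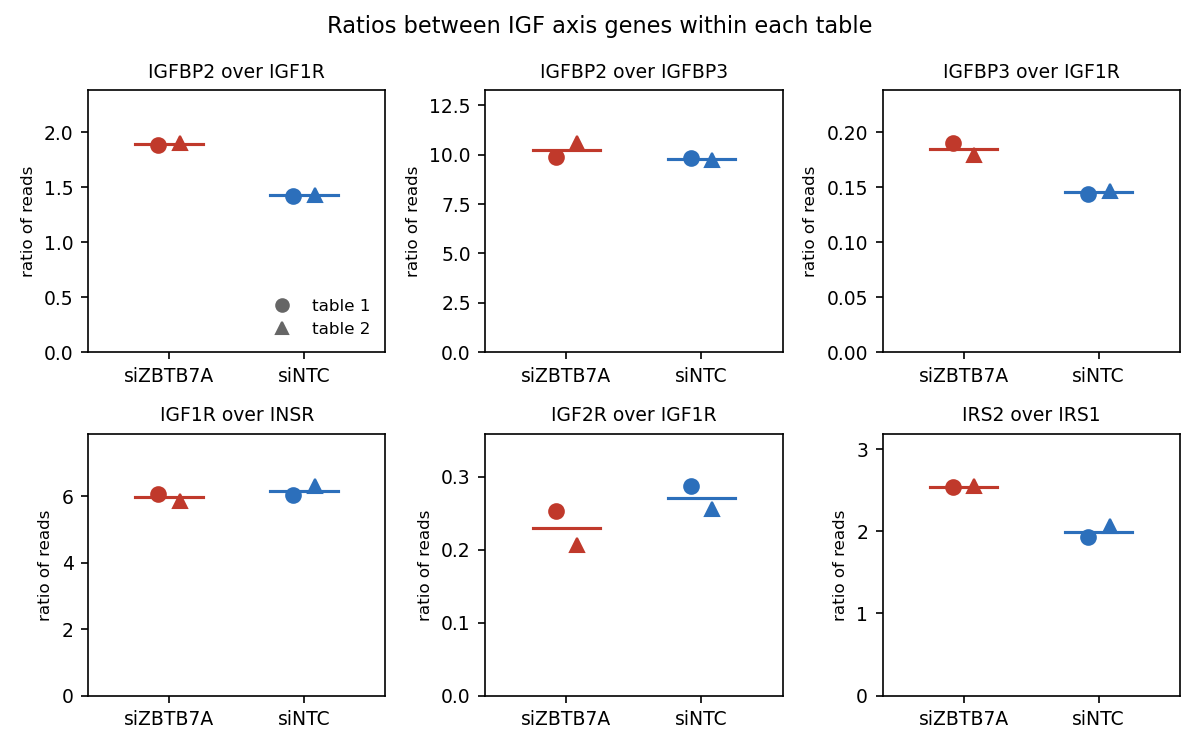
Ratio of reads between pairs of members in each table, with circles for the first table, triangles for the second and lines for the summed tables; every axis starts at 0. IGFBP2 over IGF1R separates the groups (1.88 and 1.91 in siZBTB7A, 1.42 and 1.43 in siNTC), while IGFBP2 over IGFBP3 and IGF1R over INSR lie at like levels in both.

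Reads on the strand opposite to the genes were rare at the members. Together the 10 genes had 25 opposite-strand reads in siZBTB7A and 27 in siNTC, or 0.333% (0.216% to 0.491%) and 0.381% (0.251% to 0.553%) of their reads. Over all genes the share was 3.77% in siZBTB7A and 3.86% in siNTC. IGFBP2 had 5 such reads in siZBTB7A and 9 in siNTC, against 3674 and 3035 on its own strand.

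IGFBP2 and IGFBP5 are next to each other on chromosome 2 and lie on opposite strands, with RPL37A and SMARCAL1 on the far side of IGFBP2. RPL37A, a ribosomal protein gene, had a fold of 1.03 (1.004 to 1.05), with pseudogene copies that make its count uncertain. SMARCAL1, which encodes an annealing helicase, had 0.935 (0.762 to 1.15). XRCC5, which encodes the Ku80 subunit of the DNA end-binding complex, had 0.951 (0.911 to 0.992). None of these 3 was called. TNP1 on the side of IGFBP5 had 0 reads in every table.

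By fold alone, 3 other coding genes within 2-fold of the mean CPM of IGFBP2 came nearest to it among the called genes. MT-CO2, a mitochondrial subunit of cytochrome oxidase, had 3712 reads in siZBTB7A and 3031 in siNTC, a fold of 1.30 (1.23 to 1.36), and its log2 fold differed from that of IGFBP2 by 0.02. MT-CYB, the mitochondrial cytochrome b gene, had a fold of 1.21 (1.13 to 1.29). SLC25A39, a mitochondrial carrier gene, had a fold of 1.19 (1.14 to 1.25). With 1 library per group, likeness here is a single difference of folds.

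Few reads were counted for the ligands of the axis, and reads that are ambiguous between genes are left out of these counts. IGF1 had 1 read in siZBTB7A and 3 in siNTC, IGF2 had 3 and 9, and INS had 0 in every table. The list of ligands and remaining axis genes had 2 tested members of 9, IGFBPL1 at 1.24 (0.913 to 1.68) and IGFBP7 at 1.47 (0.835 to 2.63), and 0 were called. With so few reads a difference in ligand expression was not detectable at this depth.

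Of 14 genes for proteases that cleave the binding proteins and for their inhibitors, 7 were tested, and 1 was higher and 1 lower. Among all tested genes the shares were 2.25% higher and 2.72% lower. ADAM9, a membrane metalloprotease gene, was lower at 269 CPM in siZBTB7A and 298 CPM in siNTC, a fold of 0.902 (0.859 to 0.947). It was not called without the second siNTC table, without the first siZBTB7A table or by DESeq2 (adjusted p = 0.127). KLK2, a prostate kallikrein gene, was called higher at 4008 CPM in siZBTB7A and 3916 CPM in siNTC, a fold of 1.02 (1.01 to 1.04). That direction turned under total-count scaling (log2 fold -0.002) and under the GC and length correction (log2 fold -0.001), and the call was lost. CTSD, the cathepsin D gene, had 1.03 (0.933 to 1.13), and KLK3 had 1.11 (0.987 to 1.24).

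Below the adaptors, 1 of 23 tested genes of the PI3K, AKT and mTOR pathway was lower and 0 were higher, with a median log2 fold of 0.03. The shares of all tested genes were 2.72% lower and 2.25% higher. PIK3R1, which encodes the p85-alpha regulatory subunit that docks on the IRS proteins, had 299 and 328 reads in the siZBTB7A tables and 413 and 462 reads in the siNTC tables. Both siZBTB7A tables were lower, at 54.5 and 57.8 CPM against 71.1 and 76.9 CPM, a fold of 0.758 (0.683 to 0.841). PIK3R1 also passed with the GC and length correction (0.795) and without any single table. AKT2 and RPS6KB2, both kinase genes of the pathway, had folds of 0.999 (0.945 to 1.06) and 1.04 (0.987 to 1.10).

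Of 15 tested genes of the SHC, RAS and MAPK branch, 1 was higher and 2 were lower, with a median log2 fold of 0.01. Over all tested genes, 2.25% were called higher and 2.72% lower. MAP2K2, which encodes the kinase MEK2, was higher at 1.19 (1.09 to 1.31). BRAF, which encodes a kinase upstream of MEK2, was lower at 0.835 (0.764 to 0.914). With the GC and length correction neither MAP2K2 nor BRAF was called, at folds of 1.14 and 0.891. MAP2K2 was also not called without the second siNTC table, and neither gene without the second siZBTB7A table. BRAF was also not called with unstranded counts. PTPN11, the SHP2 phosphatase gene, had 0.976 (0.922 to 1.03).

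FOXO factors are held out of the nucleus when insulin or IGF signalling is active. Among 11 tested FOXO target genes, 2 were lower, beside 2.72% of all tested genes, and 0 were higher, beside 2.25%. Activity of the FOXO factors was not tested. SESN3, which encodes a stress-responsive sestrin, had 1151 CPM in siZBTB7A and 1257 CPM in siNTC, a fold of 0.916 (0.895 to 0.938). Corrected for GC content and length, its fold was 0.981 and the call was lost. TXNIP, which encodes an inhibitor of glucose uptake, had 182 CPM in siZBTB7A and 203 CPM in siNTC, a fold of 0.899 (0.847 to 0.954). TXNIP was not called without the first siNTC table, without the second siZBTB7A table or by DESeq2 (adjusted p = 0.194). The list's median log2 fold was -0.08. TRIB1 had 0.994 (0.960 to 1.03) and CCNG2 had 0.946 (0.843 to 1.06).

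In the other lists 0 genes were called. Of the 7 tested genes of mannose 6-phosphate sorting, in which IGF2R also works, 4 had a log2 fold above 0. So did 6446 of all 12848 tested genes. The 4 include GNPTAB at 1.22 (lower bound of the interval 1.06), NAGPA at 1.47 (1.03 to 2.12) and GGA1 at 1.12 (0.978 to 1.27). GNPTAB, which encodes part of the enzyme that makes the mannose 6-phosphate tag, was called with the GC and length correction, at 1.25. M6PR, the other mannose 6-phosphate receptor gene, had 0.964 (0.866 to 1.07), GNPTG had 0.916 (0.733 to 1.14) and GGA2 had 0.930 (0.811 to 1.07). Of 11 tested adaptors and inhibitors of the receptors, GRB10 had 1.08 (0.964 to 1.22) and TRIB3 0.991 (0.897 to 1.10). Of 5 tested partners of the binding proteins, ITGB1, an integrin subunit gene, had 0.996 (0.929 to 1.07) and RXRA 0.966 (0.872 to 1.07). IGF2BP3, the tested member of 3 IGF2 mRNA-binding protein genes, had 0.936 (0.510 to 1.71), and IGF2BP2 had 7 reads in siZBTB7A and 5 in siNTC. Over all these lists 8 of 82 tested genes were called, 9.76% beside 4.97% of all tested genes, and nothing is read from that share, since the lists were chosen with results of these data known. In bulk RNA, fewer cells of a kind and less RNA per cell cannot be told apart.

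**Figure D4:**
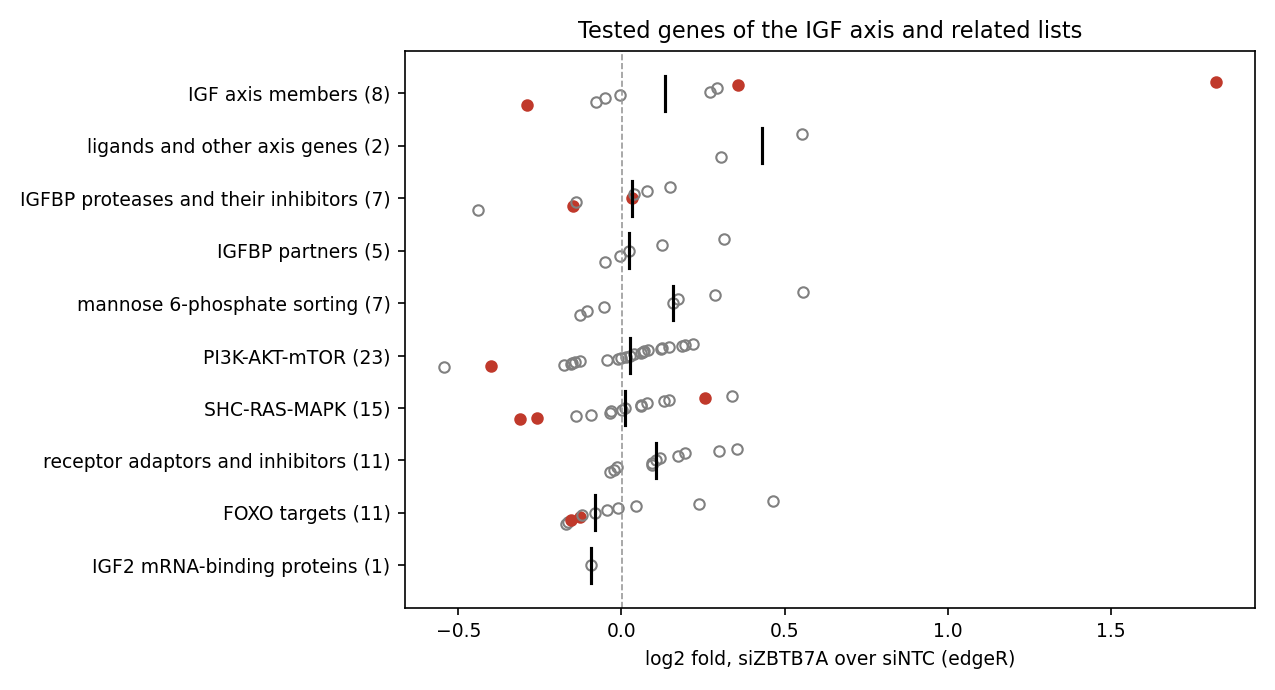
Log2 fold of siZBTB7A over siNTC from edgeR for each tested gene of the members and the 9 related lists, with the number tested beside each name; filled points were called, black bars are list medians and the dashed line is the median of all tested genes. Most points lie within 0.5 of 0, and IGFBP5 at 1.82 stands far from the rest on few reads.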

How the data were processed

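Per the labels' protocols, RNA from siZBTB7A and siNTC VCaP cells went into stranded total RNA libraries. The authors deposited whole-number counts per gene, without normalization, in the layout of STAR. The submitters' processing notes name STAR 2.4.2a and the builds hg19 and GRCh37. No annotation release is stated there. Reads on the kit's main strand were used (column 4). The 4 rows that name no gene held 50.8% to 51.2% of each table and were left out. Multi-mapping and ambiguous reads are not in the gene counts.

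GENCODE 29, on another build, named 55698 of 60308 identifiers and gave exon and transcript lengths and GC content. Promoter sequences are RefSeq's. The test was edgeR 4.0.16 in R 4.3.3 (quasi-likelihood, robust, TMM factors, filterByExpr, group only), with Benjamini-Hochberg adjusted p under 0.05 over all tested genes, checked on simulated counts. Since a group's tables count as 1 library, it compares libraries, not conditions. CPM, RPKM and folds used TMM-adjusted totals, folds with Clopper-Pearson intervals, ratios of ratios with conditional exact ones and RPKM with exact Poisson ones (all 95%). The GC and length correction was a spline with 4 degrees of freedom each.

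The named genes were the members, ZBTB7A, ERG, KLK3, called genes of the 9 related lists with up to 2 further deep members of each, and the 3 genes nearest to IGFBP2 in fold. Genes next to IGFBP2, the ligands, LUM, KRT5, COL1A2, FOLH1, SLC45A3, HOXB13, GNPTAB and NAGPA were added after their values were seen. So were KRT14, COL1A1, GNPTG and GGA2. Members and lists were chosen with earlier results of these data known. PECAM1 was not matched. Single-gene values of some members of the SHC, RAS and MAPK list are not reported here, though its counts include them. Other tools were DESeq2 1.42.0, Python 3.11.15, scipy 1.17.1 and pandas 2.3.3.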

Additional observations from a re-analysis of the deposited data

How the results depend on the processing

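The fold of IGFBP2 kept its direction and its call under every alternative run, between 1.249 (total-count scaling) and 1.30 (without the second siNTC table), and 1.26 to 1.30 over the fits that left out a table. Of 92 values of the other 9 members, 91 stayed inside the main counting interval and 1 did not, IGFBP5 at 12.9 without the first siNTC table. IGFBP6 had no fold without that table, since the remaining one had 0 reads. All of these runs reuse the reads of 1 library per group. They show dependence on processing and depth and cannot test replication. Members called numbered 3, and 1 with the DESeq2 test, which gave no adjusted p for 6 of the 8. Without a table, 1 to 2 members were called. The 639 genes called over the whole table (289 higher, 350 lower) were 85 with DESeq2, which gave no adjusted p for 11707 genes, and 367 with the GC and length correction. Without a table they were 303 to 373: 373 and 353 without the first and the second siNTC table, 346 and 303 without the first and the second siZBTB7A table. A lone table was assumed to vary like the other group's, and with fewer reads fewer genes pass. Total-count scaling gave 750 (171 higher, 579 lower), so the split between directions moves with the scaling. The 8 called genes of related lists were 1 with DESeq2 (SESN3; ADAM9, KLK2 and TXNIP missed the threshold and 4 had no adjusted p), 4 with the GC and length correction (3 of the 8 among them) and 4 to 8 without a table. The cause of the DESeq2 counts was not tested. Same-numbered tables had deviations that correlated at -0.014 over 9378 genes, and nothing ties them otherwise. With the replicate number as a block, 654 genes were called (297 higher, 357 lower), 3 members and 8 related genes, and the fold of IGFBP2 was 1.28. Depth limits IGFBP4, IGFBP5 and IGFBP6, with at most 24 reads a library.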
